A study of Mus musculus with 6 samples.

Results

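The guanylate-binding proteins (GBPs) and the immunity-related GTPases (IRGs) are the large and the small arm of the interferon-inducible GTPases of the mouse. Of this gene group, 10 genes were followed, namely the GBP genes Gbp2, Gbp3, Gbp4, Gbp5, Gbp7 and Gbp9 and the IRG genes Irgm1, Irgm2, Igtp and Iigp1. They were chosen by symbol, through the Ensembl identifiers of the expression table, and all 10 were found among its 23504 genes. In the table they carry the identifiers ENSMUSG00000028270 (Gbp2), ENSMUSG00000028268 (Gbp3), ENSMUSG00000079363 (Gbp4), ENSMUSG00000105504 (Gbp5), ENSMUSG00000040253 (Gbp7), ENSMUSG00000029298 (Gbp9), ENSMUSG00000046879 (Irgm1), ENSMUSG00000069874 (Irgm2), ENSMUSG00000078853 (Igtp) and ENSMUSG00000054072 (Iigp1). The rule is by symbol alone and holds no measured value, although earlier results of these data were known when the group was chosen.

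The libraries were made from BMMs, macrophages grown from the bone marrow of C57BL/6 mice, which the methods of the study describe as males of 6 to 8 weeks. The labels name no transgene or deletion for either group, and RNA was taken on day 3. The 3 DASA-58 libraries came from cells given DASA-58, a small molecule activator of the M2 form of pyruvate kinase, together with RANKL, the cytokine that drives macrophages to become osteoclasts. The 3 DMSO libraries came from cells given the same volume of the solvent. The study states in one place that both groups were induced with RANKL and in another names RANKL for the DASA-58 cells alone, it writes DASA-48 in its methods where the labels write DASA-58, and it gives no concentration for this experiment. Nothing states whether the libraries of a group came from separate animals, so the p-values measure the spread between these libraries, which may be technical.

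GBPs and IRGs are switched on mainly by interferon-gamma and, for many of them, by type I interferons. The receptors pass the signal through JAK kinases to transcription factors that bind gamma-activated sites or, like IRF1, interferon-stimulated response elements. In macrophages the induced GTPases gather on the vacuoles of intracellular bacteria and parasites, where GBPs help to break the vacuole or the bacterium open and to pass its contents to inflammasomes, while the regulatory IRGs Irgm1, Irgm2 and Igtp (also called Irgm3) hold effector IRGs such as Iigp1 (also called Irga6) inactive on the membranes of the cell itself.

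The stretches just before the start of 6 members are shown because the letters of these 2 kinds of element stand in them. RefSeq promoter windows of GRCm38.p6, from 250 bases before to 50 bases after an annotated start, were found for 7 of the 10 members, and Gbp4, Gbp9 and Iigp1 had none. The 120 bases before the start are printed 5′ to 3′ in the direction of the gene. They lie at chr3:142620543-142620662 (plus strand) for Gbp2, chr3:142559924-142560043 (plus strand) for Gbp3, chr3:142530216-142530335 (plus strand) for Gbp7, chr11:48871421-48871540 (minus strand) for Irgm1, chr11:58214857-58214976 (plus strand) for Irgm2 and chr11:58199436-58199555 (plus strand) for Igtp. Capitals mark the core of the interferon-stimulated response element, searched as GAAANNGAAA or, on the other strand, TTTCNNTTTC, and the gamma-activated site, searched as TTCNNNGAA, which reads the same on both strands.
Gbp2: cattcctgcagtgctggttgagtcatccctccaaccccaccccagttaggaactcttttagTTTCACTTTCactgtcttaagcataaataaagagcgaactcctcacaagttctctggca
Gbp3: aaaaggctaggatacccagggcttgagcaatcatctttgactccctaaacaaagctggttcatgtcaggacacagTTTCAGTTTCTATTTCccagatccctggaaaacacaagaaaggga
Gbp7: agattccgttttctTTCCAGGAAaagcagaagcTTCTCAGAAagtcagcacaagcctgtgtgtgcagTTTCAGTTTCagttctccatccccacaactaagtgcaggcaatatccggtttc
Irgm1: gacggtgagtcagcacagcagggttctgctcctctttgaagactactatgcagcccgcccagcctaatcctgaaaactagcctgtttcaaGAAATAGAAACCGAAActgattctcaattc
Irgm2: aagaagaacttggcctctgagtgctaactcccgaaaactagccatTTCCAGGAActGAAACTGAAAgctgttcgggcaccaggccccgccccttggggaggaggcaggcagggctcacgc
Igtp: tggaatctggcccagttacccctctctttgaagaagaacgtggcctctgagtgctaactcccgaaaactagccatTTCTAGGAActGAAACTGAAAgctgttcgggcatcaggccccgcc

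The response element core was found in 7 of 7 members with a window, beside 3.44% of all 32851 promoter windows in the table. Members were counted at any start, while the share over all windows counts each start alone. Among the lists read below, 12 of 19 type I interferon targets and 5 of 9 related GTPases with a window also held the core. So did 3 of 17 interferon-gamma signalling genes and 3 of 22 other interferon-gamma targets. The core began 59 bases before the start of Gbp2 and 53 bases before that of Gbp7. In Gbp3, copies began 45 and 39 bases before the start and overlapped each other, and in Irgm1 an overlapping pair began at 30 and 24 bases. It began 64 bases before the start in Irgm2, 34 bases in Igtp and 165 bases in Gbp5, whose stretch is not printed. With only the 100 bases before the start searched, 6 of 7 members held it, beside 1.46% of all windows. A second annotated start of Gbp3 had neither motif.

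The gamma-activated site was found in 4 of 7 members, beside 8.30% of all windows. It was also found in 3 of 9 related GTPases and 6 of 17 interferon-gamma signalling genes. For other interferon-gamma targets the count was 4 of 22, and for type I interferon targets 3 of 19. Gbp7 held it at 106 and 87 bases before the start, Gbp5 at 245 and 52 bases, Irgm2 at 75 bases and Igtp at 45 bases. In Irgm2 and Igtp it stood directly ahead of the response element core. The windows of these neighbouring genes also share a run of 61 identical bases, which lies downstream of both motifs. The printed letters that hold and surround both motifs differ between Irgm2 and Igtp at only a few positions. The matches of Irgm2 and Igtp are therefore not separate observations, although each gene is counted. Gbp2, Gbp3 and Irgm1 held no such letters in these windows. A match is a description of letters, and whether any factor bound there was not measured.

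**Figure D1:**
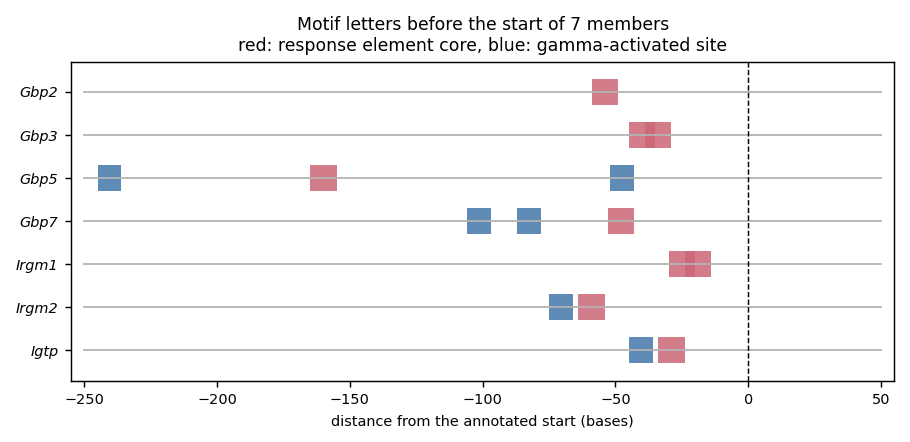
Position of the motif letters in the promoter windows of the 7 members with a window, in bases from the annotated start (0, dashed line); red boxes mark the response element core and blue boxes the gamma-activated site. The core lies within 64 bases of the start in 6 of the 7 genes and at 165 bases in Gbp5, and 4 genes also hold the gamma-activated site.

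Levels are given as FPKM, fragments scaled for the length of the gene and the size of the library, so that levels of different genes may be compared. The recovered depth was 18191560 to 18968556 fragments per library, and the 3 fragments that a count of 0 allows correspond to 0.158 to 0.165 FPKM on a gene of 1000 bases, for counting error only. Groups were compared with limma on log2(FPKM + 1) (Benjamini-Hochberg adjustment) for the 10965 genes whose mean level reached 1 FPKM, and a gene was called at an adjusted p under 0.05. The fold changes below are DASA-58 minus DMSO on this scale, which understates the change of genes at a low level. Among all genes tested, 7.28% were called lower and 4.24% higher with DASA-58, and the median fold change was -0.03 (log2). Of the calls over all genes, 63.2% were lower in the deposited values and 71.3% once library totals were made equal. The share was 46.5% after trimmed mean scaling, 45.8% after median centring and 49.5% after quantile normalization. The direction of the 8 members tested was the same under each of these scalings. Gbp4 and Gbp5 were not run under them, and kept their direction in the 8 alternatives run for each. The mean chi-square per gene between libraries, which counting alone would hold near 1, was 2.35 to 3.38 within a group and 8.89 to 10.9 between groups, so no library repeated another. Pkm, the gene of the enzyme that DASA-58 acts on, had 564 to 581 FPKM with DMSO and 569 to 581 FPKM with DASA-58. DASA-58 acts on the protein, so this level does not check the treatment.

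With DMSO the regulatory IRGs had the highest levels. Irgm1 stood first with 16.7 ± 1.03 FPKM (SD, n = 3), followed by Irgm2 with 14.5 ± 0.703 FPKM and Igtp with 13.1 ± 0.736 FPKM, and the ranges of these 3 genes did not overlap. Gbp3 (7.44 ± 0.290 FPKM) and Gbp2 (6.53 ± 0.240 FPKM) came next. Gbp9 (5.64 ± 0.543 FPKM) and Iigp1 (5.57 ± 0.679 FPKM) could not be separated, since their ranges overlapped. Gbp7 was lower with 3.11 ± 0.212 FPKM, and Gbp5 (0.661 ± 0.0374 FPKM) and Gbp4 (0.292 ± 0.0260 FPKM) were under 1 FPKM in every library. With DASA-58 the order was the same at the top and at the bottom, but Iigp1 (5.12 ± 0.614 FPKM) stood ahead of Gbp3 (4.79 ± 0.248 FPKM) and Gbp2 (4.74 ± 0.509 FPKM), and the ranges of each neighbouring pair among these 3 overlapped.

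GBP genes were lower with DASA-58. All 6 had a lower mean, at 64.5% to 75.4% of the DMSO mean, and in all 6 every DASA-58 library lay below every DMSO library, a separation in this direction that 21.6% of all genes tested showed. Of the 6, 4 passed the filter on low levels and 4 were called lower, with a median fold change of -0.43 (log2). Over all genes tested, 7.28% were called lower and 4.24% higher. The IRG genes stood at 87.8% to 92.2% of the DMSO mean, 0 of 4 were called in either direction, and the median was -0.11 (log2). At an unadjusted p under 0.05 (limma), 2 of the 4 IRGs were lower and 0 higher, and voom, the weighting of limma for counts, called on the recovered fragments 1 lower and 0 higher. Whether the arms differed from each other was not tested. In bulk RNA, fewer cells with a transcript and less of it per cell cannot be told apart.

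Gbp2 codes for a GBP that carries a lipid anchor and gathers on vacuoles of bacteria and of Toxoplasma. It was measured at 6.74, 6.58 and 6.26 FPKM in DMSO libraries 1, 2 and 3 and at 4.62, 4.30 and 5.30 FPKM in DASA-58 libraries 1, 2 and 3. The groups did not overlap, and the DASA-58 library 3 lay nearest to the controls. Gbp2 fell by 0.39 on the log2 scale (95% interval -0.55 to -0.23, adjusted p = 0.0108, limma), to 72.7% of the DMSO mean. The call was lost with no filter on low levels (adjusted p = 0.053, limma).

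Gbp3, its neighbour in the same gene cluster, changed most among the members tested. It was measured at 7.68, 7.12 and 7.52 FPKM with DMSO and at 4.98, 4.51 and 4.89 FPKM with DASA-58. The lowest control stood well above the highest treated library. Gbp3 fell by 0.54 on the log2 scale (95% interval -0.66 to -0.42, adjusted p = 0.000796, limma), to 64.5% of the DMSO mean, from 438 to 460 recovered fragments per library to 268 to 306. It was called in all 17 alternative settings.

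Gbp7 takes part in the oxidative and autophagic defence of vacuoles. Its level was 3.03, 2.96 and 3.36 FPKM with DMSO and 2.55, 2.21 and 2.27 FPKM with DASA-58. The groups did not overlap, and the first DASA-58 library lay nearest to the controls. Gbp7 fell by 0.30 on the log2 scale (95% interval -0.46 to -0.14, adjusted p = 0.0304, limma). This was the least stable call of the group: it was lost without any one of DMSO replicates 1, 2 and 3 or DASA-58 replicates 2 and 3, with adjusted p-values of 0.075, 0.0512, 0.0818, 0.094 and 0.0955 (limma). Gbp7 also shares 11.3% of its exon bases with the gene model Gm43802 on the same strand, so that part of its fragments may have been counted elsewhere.

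Gbp9 lies in the other GBP cluster of the mouse, beside Gbp4 and Gbp8. It was measured at 5.21, 5.45 and 6.25 FPKM with DMSO and at 4.00, 3.94 and 3.55 FPKM with DASA-58. The third DMSO library was the highest and the third DASA-58 library the lowest, and the groups did not overlap. Gbp9 fell by 0.46 on the log2 scale (95% interval -0.62 to -0.29, adjusted p = 0.00703, limma) and was called in all 16 alternative settings in which it could be tested. Of the 50-base words of its transcript, 9.56% also occur in other genes.

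Gbp4 and Gbp5 were too low for the filter and were described from their single values. Gbp5, whose protein promotes the assembly of the NLRP3 inflammasome, was measured at 0.632, 0.647 and 0.703 FPKM with DMSO and at 0.496, 0.447 and 0.508 FPKM with DASA-58, which correspond to 77 to 85 and 54 to 64 fragments per library. Gbp4 was measured at 0.320, 0.269 and 0.286 FPKM with DMSO and at 0.206, 0.169 and 0.197 FPKM with DASA-58, or 38 to 44 and 23 to 29 fragments. Of the 50-base words of the Gbp4 transcript, 12.8% also occur in other genes, so its counts are not fully separate. Neither gene had overlapping groups. Gbp5 stood at 73.2% and Gbp4 at 65.3% of the DMSO mean, and the exact permutation test gave its smallest possible two-sided value with 3 against 3 libraries for each gene (p = 0.1).

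**Figure D2:**
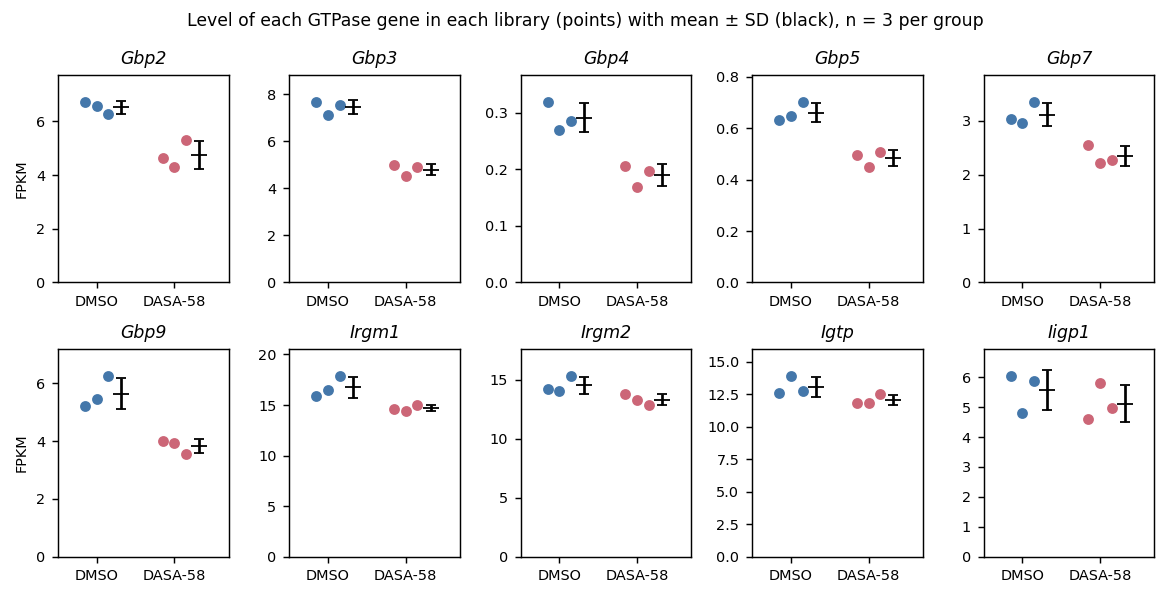
FPKM of each of the 10 genes in each library (points, replicates 1 to 3 from left to right) with the group mean and SD (black, n = 3), on axes that start at 0; DMSO in blue and DASA-58 in red. The groups are apart in all 6 GBP genes, stand close together in Irgm1, Irgm2 and Igtp, and overlap in Iigp1.

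Among the IRGs, none of the regulatory members was called, and their values are given one by one. Irgm1, which is needed for macrophages to control mycobacteria and for the balance of autophagy, was measured at 15.9, 16.5 and 17.9 FPKM with DMSO and at 14.6, 14.4 and 15.03 FPKM with DASA-58. The groups did not overlap, and the DASA-58 libraries lay within a narrow range. The fold change was -0.17 (log2; 95% interval -0.28 to -0.07) and missed the threshold by little (adjusted p = 0.0536, limma). Irgm1 was called in 3 of 17 alternative settings, namely a filter at 5 FPKM, equal library totals and voom on the recovered fragments, and the adjusted p over all settings ran from 0.00418 to 0.14 (limma).

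Irgm2 was measured at 14.2, 14.0 and 15.3 FPKM with DMSO and at 13.8, 13.3 and 12.9 FPKM with DASA-58. The groups were apart by less than the range of either. The fold change was -0.12 (log2; 95% interval -0.22 to -0.01, adjusted p = 0.139, limma).

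Igtp was measured at 12.6, 13.9 and 12.7 FPKM with DMSO and at 11.8, 11.8 and 12.5 FPKM with DASA-58. The third DASA-58 library almost reached the lowest control. The fold change was -0.11 (log2; 95% interval -0.22 to 0.00, adjusted p = 0.195, limma). Igtp and Irgm2 overlap on the same strand in 8.01% and 4.39% of their exon bases, and 12.3% of the 50-base words of Igtp also occur in Irgm2, so their counts are not fully separate.

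Iigp1, the effector among the IRGs measured here, differed in this respect from the other 9 members: its groups overlapped. It was measured at 6.04, 4.79 and 5.88 FPKM with DMSO and at 4.59, 5.79 and 4.97 FPKM with DASA-58. The second DMSO library was lower than 2 of the 3 DASA-58 libraries. The fold change was -0.10 (log2; 95% interval -0.32 to 0.12, adjusted p = 0.543, limma), an interval that holds both no change and the change of Gbp7.

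Related GTPases were read beside these genes. The list held 20 genes, of which 19 were analysed here and 10 passed the filter. Of these 10, 3 were called lower and 0 higher (5 and 0 at an unadjusted p under 0.05, and 2 and 0 with voom), with a median of -0.12 (log2). The share called lower was 30%, beside 7.28% over all genes. Mx1, an antiviral GTPase of the dynamin type, fell by 0.37 on the log2 scale (adjusted p = 0.0133, limma), from between 6.42 and 7.10 FPKM to between 4.49 and 5.44 FPKM. Gm12250, which codes for the effector Irgb10 that acts with GBPs on bacterial membranes, fell by 0.25 (log2; adjusted p = 0.0329, limma), and Ifi47, a GTPase of the IRG family, fell by 0.14 (log2; adjusted p = 0.0468, limma) at a DMSO level of 18.7 ± 0.473 FPKM (SD, n = 3). These 3 calls rested on few libraries: 0 of the 3 were left without DMSO replicate 1 or without DASA-58 replicate 1, and 1 was left without DMSO replicate 3 or without DASA-58 replicate 2. Over these fits the adjusted p reached 0.0513 for Mx1, 0.101 for Gm12250 and 0.136 for Ifi47 (limma). The calls also depended on the processing. Gm12250 and Ifi47 were both lost after median centring, after trimmed mean scaling, and with no variance trend, the replicate block or voom. Ifi47 was lost after quantile normalization as well, and all 3 calls were lost with no filter.

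Of the GBP genes outside the 10, Gbp8 was measured at 1.47 to 1.80 FPKM with DMSO and at 1.32 to 1.60 FPKM with DASA-58, with overlapping groups (-0.10 on the log2 scale, adjusted p = 0.488, limma). Gbp6 had 0.704 to 0.769 FPKM with DMSO and 0.646 to 0.794 FPKM with DASA-58. The group means of Gbp6 were 0.731 and 0.732 FPKM (exact permutation test, two-sided p = 1), although 91.6% of its 50-base words occur in other genes, which leaves its level uncertain. Gbp2b and Gbp10 were at or under 3 fragments in every library, so no difference was detectable at this depth. Mx2 (-0.26, adjusted p = 0.0761) and Tgtp2 (-0.18, adjusted p = 0.179) were not called, nor were Gm4951, Irgq, Gm5431 and 9930111J21Rik2, whose fold changes lay between -0.11 and 0.12 (log2, limma). Tgtp2 shares 90.6% of its words with other genes. Under the filter, Gvin1 was lower without overlap (0.436 to 0.518 against 0.383 to 0.422 FPKM), but 99.2% of its 50-base words occur in other genes, so its level is uncertain, and Tgtp1, Gm4070, F830016B08Rik, 9930111J21Rik1 and Irgc1 overlapped.

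**Figure D3:**
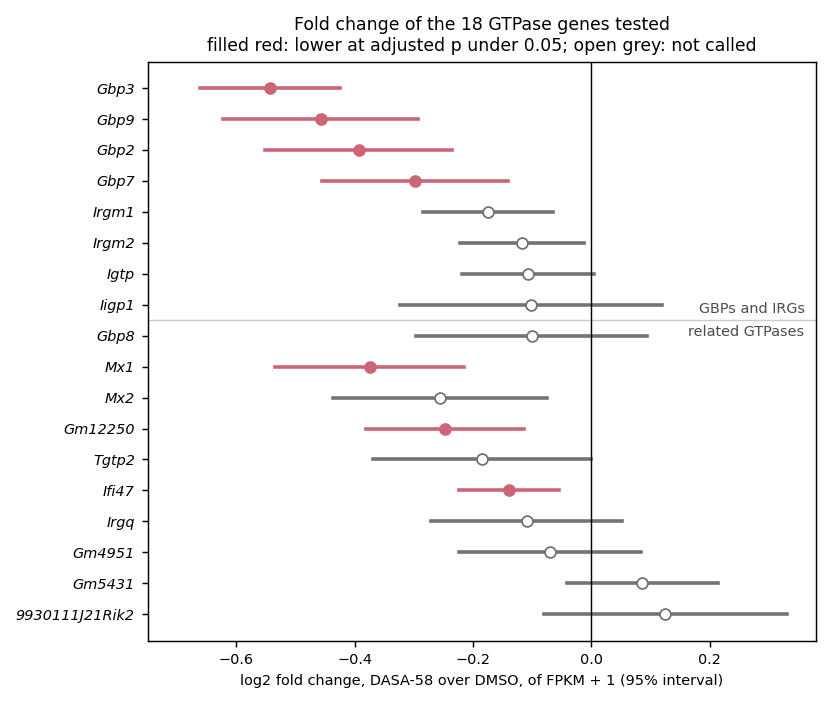
Fold change (DASA-58 over DMSO, log2 of FPKM + 1) with its 95% interval for the 8 members tested and for the 10 related GTPases tested; filled red points were called lower and open grey points were not called. The 4 GBPs at the top lie between -0.54 and -0.30, whereas the 4 IRGs lie between -0.17 and -0.10.

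The genes that carry the interferon-gamma signal were read next. Of 21 listed, 20 were tested, 3 were called lower (15%) and 1 higher, and the median was -0.04 (log2). At an unadjusted p under 0.05 (limma), and also with voom, 5 were lower and 2 higher. Over all genes, 7.28% were called lower and 4.24% higher. Interferon-gamma itself was not analysed here. The receptor chain gene Ifngr1 rose by 0.12 (log2; adjusted p = 0.0324, limma), from between 120 and 124 FPKM to between 130 and 134 FPKM, while Ifngr2 changed by -0.02 (adjusted p = 0.586, limma), a sign that turned with median centring and trimmed mean scaling. Jak2, which codes for a JAK kinase of this pathway, fell by 0.19 on the log2 scale (adjusted p = 0.0194, limma). Jak1 had a fold change of 0.06 (adjusted p = 0.245, limma).

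Irf1, whose protein binds response elements of GBP genes, fell by 0.18 (log2; adjusted p = 0.0484, limma), from between 17.0 and 18.8 FPKM to between 15.1 and 16.2 FPKM. Irf8, a macrophage factor that acts with it, was not called (0.11, adjusted p = 0.17, limma). Of the inhibitors, Socs3 fell by 0.57 (log2; adjusted p = 0.00131, limma) and Socs1 was not called (-0.22, adjusted p = 0.234, limma). Socs3 was called in all 17 alternative settings. Irf1 was called in 6 of 17. It was lost after quantile normalization, median centring and trimmed mean scaling, and with no filter, no variance trend or the replicate block. Ifngr1 was lost with no filter, no variance trend or the replicate block. Ifngr1, Jak2 and Irf1 were each lost in 5 of the 6 fits that left out a library (kept without DMSO replicate 2 for Ifngr1 and Jak2 and without DMSO replicate 1 for Irf1), with adjusted p-values up to 0.111, 0.0693 and 0.138 (limma), and the count of signalling genes called lower was 1 without DMSO replicate 3 and without any one of the DASA-58 replicates.

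Other targets of interferon-gamma, outside the GTPases, numbered 32, of which 22 were tested, 6 were called lower and 0 higher (9 and 3 at an unadjusted p under 0.05, and 7 and 3 with voom). Their median was -0.03 (log2), the same as that of all genes, while 27.3% were called lower, beside 7.28% of all genes. Cxcl10, a chemokine for T cells, fell by 0.71 (log2; adjusted p = 0.00116, limma), to 57.3% of the DMSO mean. Cd274, which codes for the checkpoint ligand PD-L1, and Cd74, the invariant chain of class II, each fell by 0.29 (log2; adjusted p = 0.00674 and 0.0285, limma). Without DMSO replicate 1, without DASA-58 replicate 1 and without DASA-58 replicate 2, the count was 2, and Cd74 was among the calls lost. Cd74 was also lost with no filter, after median centring and with the replicate block.

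Most genes known first as type I interferon targets were called lower. Of 27 listed, 26 were tested, and 18 were called lower and 0 higher (21 and 0 at an unadjusted p under 0.05 and also with voom). The median was -0.23 (log2). For the 8 members tested it was -0.24, which lay between the medians of the GBPs (-0.43) and of the IRGs (-0.11). Of the type I interferon targets tested, 69.2% were called lower, beside 7.28% over all genes. Isg15, a ubiquitin-like modifier, fell by 0.41 (log2; adjusted p = 0.000719, limma). Dhx58, a sensor of viral RNA, fell by 0.31 (adjusted p = 0.00283, limma), and Oasl1 fell by 0.29 (adjusted p = 0.00464, limma). Counts of 11 were found without DMSO replicate 1, DMSO replicate 3 or DASA-58 replicate 1, and a count of 9 without DASA-58 replicate 2. The lists share no gene with the 10 members, and the difference between the lists was not tested.

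**Figure D4:**
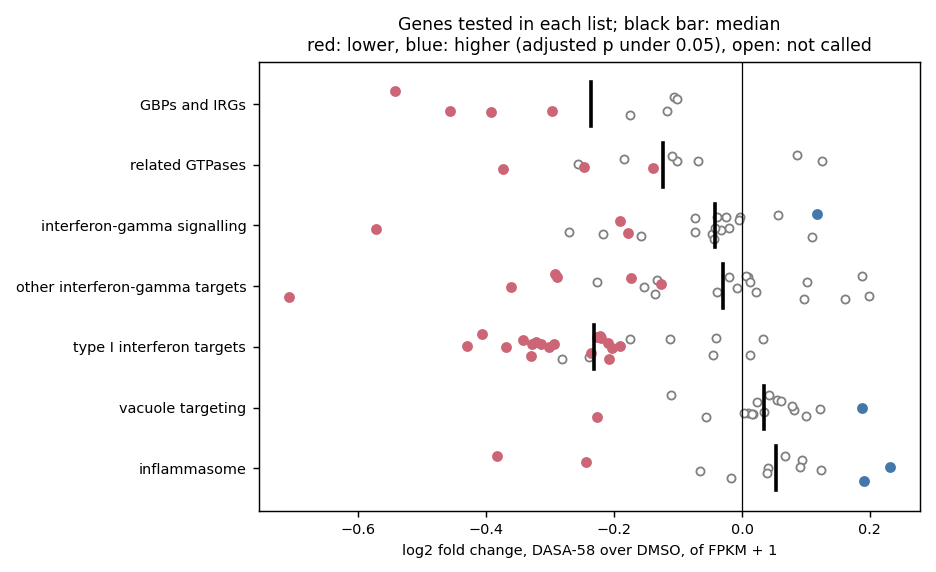
Fold change (DASA-58 over DMSO, log2 of FPKM + 1) of every gene tested in each list, with the median of the list as a black bar; red points were called lower, blue points higher, and open points were not called. The GBPs and IRGs and the type I interferon targets have their medians at -0.24 and -0.23, and the other lists have medians between -0.12 and 0.05. The median of the GBPs and IRGs falls between the GBPs (-0.54 to -0.30) and the IRGs (-0.17 to -0.10).

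The machinery that the GTPases work with was read from lists of vacuole targeting and inflammasome genes. Of 17 genes that guide GTPases to vacuoles, 17 were tested, 1 was called lower (5.88%) and 1 higher, with a median of 0.03 (log2). These called counts were near the shares over all genes, 7.28% lower and 4.24% higher. At an unadjusted p under 0.05 (limma), 2 of the vacuole targeting genes were lower and 4 higher, and with voom 1 and 2. Rnf213, a large ubiquitin ligase, fell by 0.23 (log2; adjusted p = 0.00943, limma), and Sqstm1, the autophagy receptor p62, rose by 0.19 (log2; adjusted p = 0.00356, limma). Of 13 inflammasome genes, 12 were tested, 2 were called lower and 2 higher (16.7% in each direction, beside 7.28% lower and 4.24% higher over all genes), with a median of 0.05 (log2). Gsdmd, which codes for the pore protein gasdermin D, fell by 0.38 (log2; adjusted p = 8.93e-05, limma), from between 192 and 193 FPKM to between 146 and 148 FPKM, and was called in all 17 alternative settings. Mefv (-0.24, adjusted p = 0.0336), Ninj1 (0.19, adjusted p = 0.028) and Il18 (0.23, adjusted p = 0.0483, all limma) were each lost in 5 of the 6 fits that left out a library, kept without DMSO replicate 1, 2 and 3 in that order, with adjusted p-values up to 0.102, 0.0955 and 0.143 (limma). All 3 were also lost with no filter and with no variance trend. Mefv was lost after quantile normalization, median centring and trimmed mean scaling, Ninj1 with the replicate block, and Il18 with equal library totals and voom.

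Markers of cell types were read beside these results, against the shares over all genes tested of 7.28% called lower and 4.24% called higher. Of 10 osteoclast genes, 9 were tested and 9 were called lower, among them Ctsk (-0.93, adjusted p = 8.27e-06) and Acp5 (-0.90, adjusted p = 8.27e-06, both limma), and their summed level was 778 to 833 FPKM with DMSO and 449 to 467 FPKM with DASA-58. Of 10 macrophage genes tested, 5 were called higher and 2 lower, the latter Cd14 (-0.15) and Cx3cr1 (-0.40), at a summed level of 16587 to 17435 FPKM with DMSO and 17580 to 19902 FPKM with DASA-58. Most of that sum was Lyz2, at 14701 to 17767 FPKM over all libraries. Lyz2 overlapped between the groups and was not called (adjusted p = 0.109, limma). All 10 macrophage genes were above 1 FPKM in all 6 libraries, as the label of the cells says. Of 8 neutrophil genes, 6 were tested and 4 were called lower, with a summed level of 167 to 171 FPKM with DMSO and 131 to 137 FPKM with DASA-58, while their defining marker Ly6g was at 0 to 0.0583 FPKM with DMSO and at 0 in all DASA-58 libraries. The part of these cell types in the levels of the GBPs was not tested.

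Most markers of cells that make interferon-gamma were at a low level. Of 13 markers of T and NK cells, 11 stayed under 1 FPKM in all libraries, and the sums overlapped (6.46 to 7.76 FPKM with DMSO and 6.38 to 7.55 FPKM with DASA-58). Most of that sum was Cd4, at 5.24 to 5.75 FPKM over all libraries, a gene that macrophages can also express. Over all libraries Cd3e was at 0.0130 to 0.0404 FPKM, Ncr1 at 0.103 to 0.428 FPKM and Nkg7 at 0.421 to 1.33 FPKM. All 6 dendritic cell markers analysed here were under 1 FPKM. Stromal markers were not all low. Of 6 analysed here 3 were tested and 1, Acta2, was called higher (0.22, adjusted p = 0.0105, limma), beside 4.24% of all genes. The stromal sum was 72.4 to 78.0 FPKM with DMSO and 82.1 to 83.7 FPKM with DASA-58. Col1a1 had 21.4 to 23.2 FPKM with DMSO and 22.6 to 23.5 FPKM with DASA-58 and was not called (adjusted p = 0.512, limma). Of 4 B cell markers analysed here, 2 were tested and 0 were called in either direction, at an adjusted or an unadjusted p under 0.05 with limma or with voom.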

How the data were processed

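RNA of 6 libraries was sequenced, 3 with DMSO and 3 with DASA-58. The authors deposited FPKM values in 1 table, 1 column per library, and 0 columns were left unmapped. The submitters' processing notes name HISAT2 2.1.0, HTSeq 0.6.0 and mm8, while the annotation and the use of strand are not given in the sources used here. Symbols were matched for 23455 of 23504 Ensembl identifiers. Groups were taken from the treatment label.

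The members and all gene lists were chosen with earlier results of these data known. Genes whose mean level reached 1 FPKM were compared on log2(FPKM + 1) with limma 3.58.1 in R 4.3.3 (lmFit, eBayes with a trend, no replicate block, Benjamini-Hochberg adjustment, threshold 0.05). Members under the filter were compared with exact permutation tests in SciPy 1.17.1. Whole fragments were recovered from the steps of the FPKM values with exon lengths of GENCODE mouse release 21, within 0.01 fragments in all libraries for 21340 genes (90.8%), and served for precision, library distances and voom. A fitted length stood in where a listed gene was not whole.

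The genes named were all members, the related GTPases, 9 signalling genes (1 of them is not reported here), up to 3 called genes per direction in the other lists, Pkm, Ctsk, Acp5, the markers and the 10 tested genes most alike to the members. Alternatives were pseudocounts of 0.1 and 5, no filter, a filter at 5 FPKM, 4 other scalings, no variance trend, the replicate block, voom and each library left out in turn. The fit was tested on simulated data. Promoter windows came from RefSeq, and only their own GRCm38.p6 coordinates are printed, since the notes name another build for the table. Protein sequences were planned but not analysed here.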

Additional observations from a re-analysis of the deposited data

How the results depend on the processing

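Over all alternatives, 0 of 150 values of the members changed direction, 139 kept their side of the threshold, 8 lost it and 3 gained it. The members called lower numbered 4, against 2 with no filter and 3 to 4 with each library left out. The members called higher numbered 0 in every setting. In the 6 pathway lists together, 33 genes were called lower, against 14 with no filter, 21 after median centring and 15 to 24 with each library left out (lowest without DASA-58 replicate 2). In these lists 4 genes were called higher, against 1 with no filter, 1 with no variance trend, 7 with a filter at 5 FPKM, 8 after trimmed mean scaling, 8 with voom and 1 to 5 with each library left out. Over all genes, calls fell from 798 lower and 465 higher to 372 and 257 with no filter, which tests 23504 genes, and rose to 1202 and 660 with voom. The cause of the other shifts was not tested. Fold changes near 0 changed sign for Pkm (0.0270 after trimmed mean scaling, 0.0260 after median centring, 0.0446 after quantile normalization, and -0.0148 to 0.0066 with each library left out), for Ifngr2 (0.00177 after median centring and 0.0024 after trimmed mean scaling) and for Cd4 (0.00342 after quantile normalization), all on the log2 scale.

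Replicates of both groups carry the same numbers, but the deviations of same-numbered libraries correlated at only -0.02, 0.02 and -0.02, so no pairing by number was seen in these values. Whether same-numbered libraries shared an animal cannot be told from this, since counting error also keeps such correlations low. With the replicate number as a block, 3 members were called lower and 0 higher, and Gbp7 lost its call (adjusted p = 0.0597, limma). In the pathway lists the block gave 24 lower and 4 higher. Gbp4 at 23 to 44 fragments and Gbp5 at 54 to 85 fragments per library limit what the depth can show for these genes.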

Other observations

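The genes whose profile over the 6 libraries was most like the mean of the tested members were looked up among the genes tested outside the GTPase lists. Ddx58, which codes for the RNA sensor RIG-I, came first (Pearson r = 0.998 over 6 libraries), followed by Crybg1 (0.998), Vcan (0.997), Slc39a10 (0.996) and Cast (0.995), and then by Col4a5, Hnrnpm, Slco4a1, Cmpk2 and Eps8 (0.992 to 0.995). All points share the same libraries and the same 2 groups, which alone gives high values, so these are a description of likeness. Only Ddx58 and Cmpk2 of these 10 stand in the interferon lists. Vcan, the proteoglycan versican, was measured at 4.31, 4.03 and 4.78 FPKM with DMSO and at 2.60, 2.66 and 2.71 FPKM with DASA-58, and fell by 0.55 on the log2 scale (adjusted p = 0.00179, limma). Slco4a1, a transporter of organic anions, fell by 0.62 on the log2 scale (adjusted p = 0.000489, limma). Eps8 was not called (-0.12, adjusted p = 0.151, limma), and the calls of Slc39a10 and Cast were lost in 5 and 6 of the 6 fits that left out a library.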
